A study of Mus musculus with 10 samples.

Results

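The mitochondrial ribosomal protein genes were the 77 genes of 24391 in the count files whose symbol is Mrpl or Mrps followed by a number and at most 1 letter. Of these, 48 carry the large-subunit prefix Mrpl and 29 the small-subunit prefix Mrps. They were followed in 5 mouse small cell lung cancer lines, G4314, G9351, G9488, G9529 and G9577, whose genotype label joins Rb and p53 with TRE-MYCN and LSL-RTTA, that is, a MYCN transgene under a tetracycline-responsive element and the doxycycline-dependent activator rtTA. The activator's stop cassette needs Cre, whose source the labels do not name. Each line gave 1 library grown with doxycycline, called MYCN on, and 1 library 4 days after doxycycline was taken away, called MYCN off. The Rb and p53 alterations and both transgenes are in all 10 cultures. No culture had doxycycline without the MYCN transgene, so MYCN and the drug cannot be told apart in any difference given here.

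Mitochondria keep their own ribosome, which makes the few proteins encoded by mitochondrial DNA, core subunits of the respiratory chain and of ATP synthase. Its ribosomal RNAs come from mitochondrial DNA, while all its proteins are encoded in the nucleus, made in the cytosol and imported. The large subunit forms peptide bonds and the small subunit reads the messenger RNA. Some proteins have a bacterial counterpart and others are specific to mitochondria. MYC family proteins are known for driving genes of ribosome synthesis, and doxycycline belongs to the tetracyclines, which bind bacterial ribosomes and can slow mitochondrial translation. Genes of mitochondrial DNA were not analysed here.

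The libraries held 9586465 to 11960074 counts with MYCN on and 9928420 to 11123998 with MYCN off. Levels are CPM, the counts of a gene divided by the library's TMM-scaled total in units of 1e+06 counts. That total was taken over the 12835 genes tested, which held at least 93.9% of the counts of each library. Levels are relative to each library, so fewer expressing cells and less RNA per cell cannot be told apart. Per-library values are listed in the line order given above. Mycn, the switched gene, had 538, 496, 884, 791 and 977 CPM with MYCN on, against 177, 27.6, 189, 110 and 85.9 CPM with MYCN off. The groups did not overlap, and edgeR gave Mycn a log2 change of 2.86 with an adjusted p of 0.00421. Reads of the transgene and of the mouse gene cannot be told apart in these counts. G9577 stood apart from the label. The summed level of 9 neuroendocrine markers was 224 CPM on and 174 CPM off in G9577, against 3256 to 4033 CPM on and 5107 to 6557 CPM off elsewhere. The summed level of 8 mesenchymal markers was 3406 CPM on and 15560 CPM off in G9577, against at most 23.7 CPM on and 8.54 CPM off elsewhere. The 5 immune and endothelial markers summed to at most 6.55 CPM in any library. Neuroendocrine markers also moved with MYCN, 6 of 9 being lower with MYCN on and none higher, and the part of these differences in the results below was not tested. Counts of genes called higher are therefore also given without G9577.

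With MYCN on, 51 of the 76 mitochondrial ribosomal protein genes tested rose, none fell and 25 did not pass the test. Genes were tested with the quasi-likelihood F test of edgeR, with the line as a block and p-values adjusted by Benjamini-Hochberg over all 12835 genes tested at a threshold of 0.05. Over all genes tested, 31% were called, 15.3% as higher and 15.6% as lower. Of the mitochondrial ribosomal protein genes, 67.1% were called higher. Without G9577 the count was 49 of 76, of which 48 were among the 51, and 17.4% of all genes were then higher. By symbol these were 32 large-subunit and 17 small-subunit genes. The count fell to 23 without G4314 and to 24 without G9351, where 6.64% and 6.32% of all genes were higher. In a fit without the line block it fell to 1 of 76, no larger a share than the 1.68% of all genes that were then higher. Of the 25 genes that did not pass, none had an unadjusted p under 0.05 in the lower direction, and DESeq2 and limma-voom also called none lower.

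The rises were moderate and shared by most of the genes. The median log2 change of the 76 genes was 0.63, with quartiles of 0.45 and 0.89 and a range of -0.20 to 1.39, against a median of -0.08 over all genes tested. Of the 76 genes, 73 had a positive change, and 8 of those called were at least 2-fold higher. The level was higher with MYCN on in all 5 lines for 63 of the 76 genes, or 82.9%, against 20.9% of all genes tested. In 16 genes, or 21.1%, the lowest MYCN-on library lay above the highest MYCN-off library, against 6.35% of all genes tested. In the other genes the 2 groups of libraries overlapped.

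**Figure D1:**
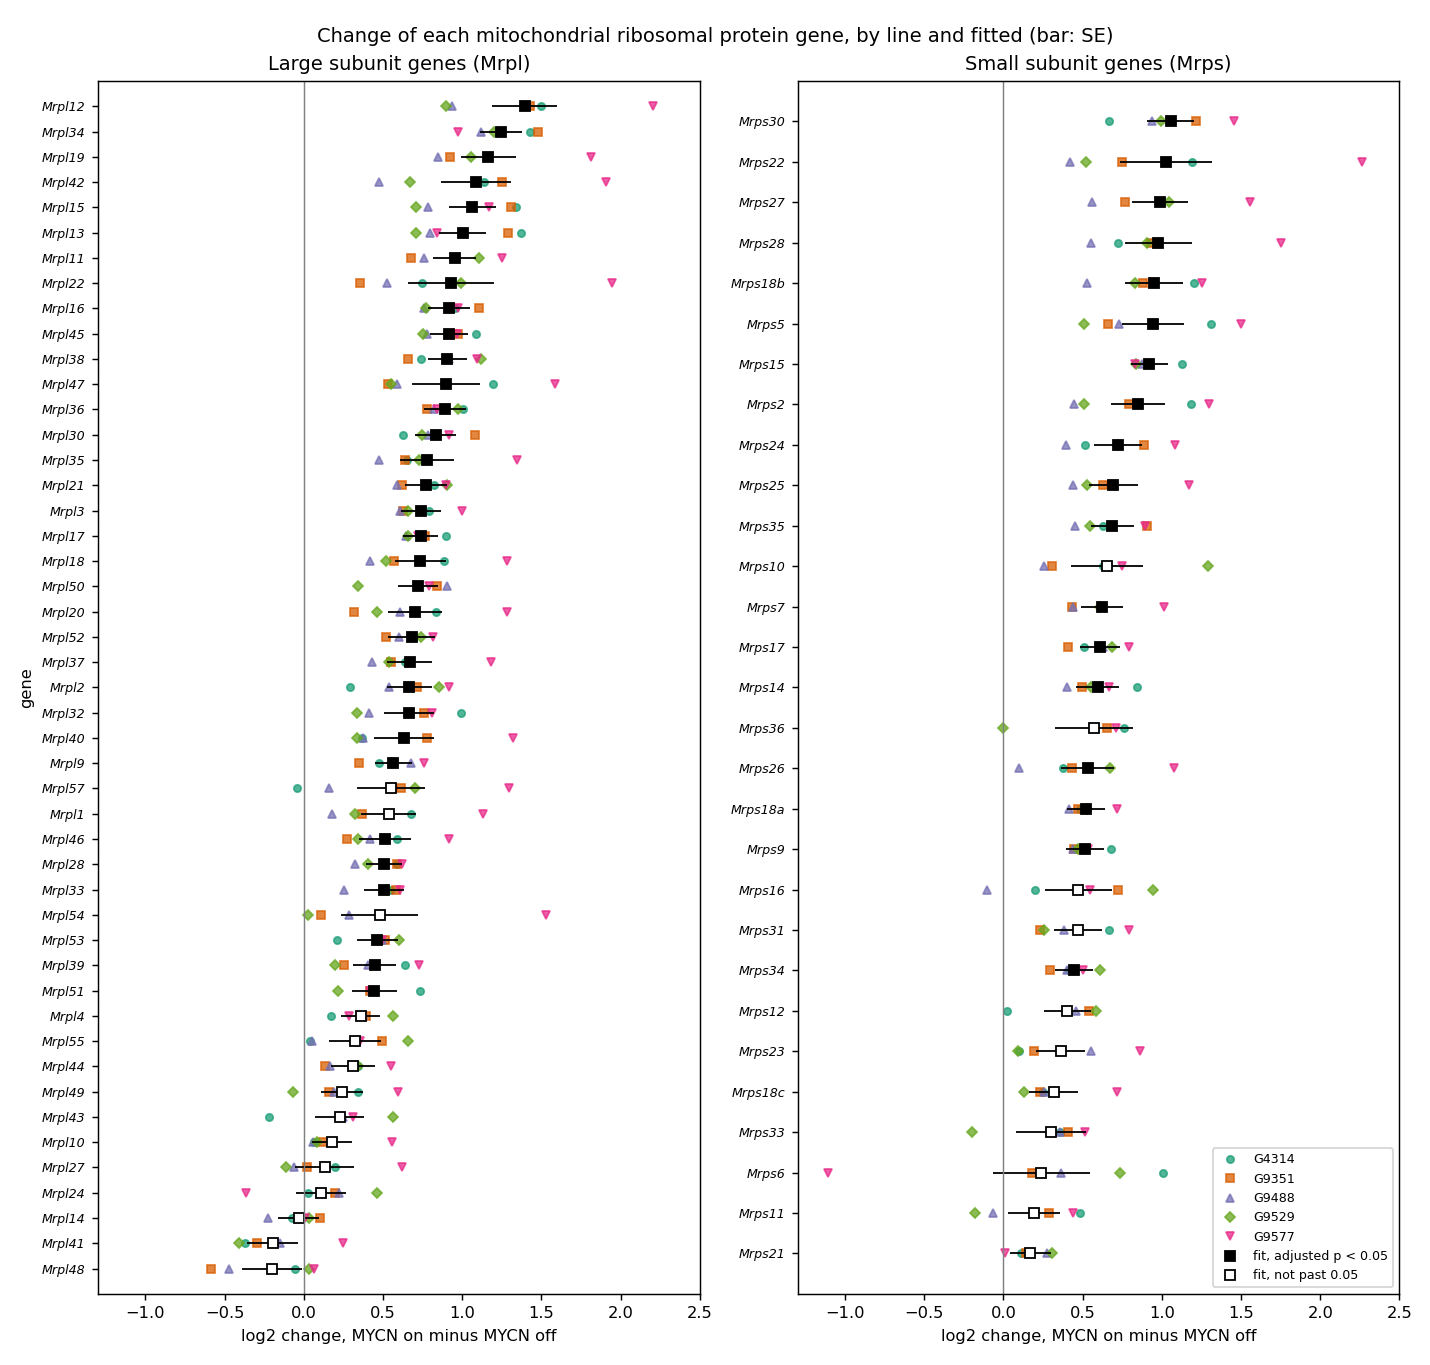
Log2 change of each tested mitochondrial ribosomal protein gene, MYCN on minus MYCN off, on the fitted log2 scale, as squares with bars of 1 SE, filled where the adjusted p passed the threshold, and coloured points for the 5 lines (differences of log2 CPM). Large-subunit genes are in the left panel and small-subunit genes in the right. The changes run from -0.20 for Mrpl48 to 1.39 for Mrpl12, and all but 3 of the fitted changes lie above 0.

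Mrpl34, Mrpl15 and Mrps15 had been set as markers of the group. The choice of genes was made with earlier results of these data known, so their values are not independent support. Mrpl34 (mm9 chromosome 8, 73988825 to 73989652, plus strand), the counterpart of a small protein of the bacterial large subunit, had 60.7, 84.2, 106, 121 and 81.8 CPM with MYCN on, against 22.5, 30.1, 48.7, 52.6 and 41.5 CPM with MYCN off. The lowest value on, in G4314, was above the highest off, in G9529. The fitted log2 change of this gene was 1.24 (SE 0.13, adjusted p = 0.003), or 2.37-fold. Mrpl15 (chromosome 1, 4763279 to 4775807, minus strand), also of the large subunit and with a bacterial counterpart, had 58.6, 66.8, 96.5, 65.4 and 109 CPM on, against 23.0, 26.9, 55.9, 39.9 and 48.4 CPM off. The groups did not overlap, and G9488 and G9577 were the highest on. Its log2 change was 1.06 (SE 0.15, adjusted p = 0.00478). Mrps15 (chromosome 4, 125724172 to 125732780, plus strand), a small-subunit protein that binds ribosomal RNA in bacteria, had 66.5, 80.5, 64.6, 88.2 and 91.3 CPM on, against 30.3, 42.4, 35.1, 49.2 and 51.3 CPM off. All 5 values on were above all 5 off, with a narrow spread on both sides. The fitted log2 change was 0.92 (SE 0.12, adjusted p = 0.00408), and it was the one gene of the 76 called under each alternative setting that was run.

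Among the large-subunit genes, 33 of 47 rose and none fell, with a median log2 change of 0.67. The largest rise was that of Mrpl12 (chromosome 11, 120345983 to 120350068, plus strand), counterpart of the bacterial stalk protein that draws translation factors to the ribosome. Mrpl12 had 99.3, 79.1, 113, 90.9 and 291 CPM with MYCN on, against 35.1, 29.3, 59.2, 48.7 and 63.0 CPM with MYCN off. The groups did not overlap, but the G9577 library on was far above the other 4. The log2 change was 1.39 (SE 0.21, adjusted p = 0.00528), and 1.20 without G9577 (adjusted p = 0.00244). Mrpl19 (chromosome 6, 81907840 to 81915943, minus strand) had 48.8, 42.5, 58.3, 57.0 and 133 CPM on, against 21.6, 22.3, 32.4, 27.3 and 37.7 CPM off. Again no value on was as low as any value off, and G9577 was the highest. Its log2 change was 1.17 (SE 0.18, adjusted p = 0.00539), counted over exons of which 22.9% of the bases are shared with Gcfc2. Reads in those shared bases were not counted.

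Mrpl42 (chromosome 10, 94943440 to 94964561, minus strand), which has no bacterial counterpart, had 63.1, 75.5, 84.5, 71.8 and 119 CPM with MYCN on, against 28.5, 31.6, 60.8, 45.1 and 31.6 CPM with MYCN off. The lowest value on, in G4314, was just above the highest off, in G9488. On the log2 scale the change was 1.09 (SE 0.22, adjusted p = 0.0124), and its adjusted p was 0.0516 without G4314 and 0.0545 without G9351. Mrpl13 (chromosome 15, 55365650 to 55388867, minus strand), with a bacterial counterpart, had 81.1, 82.5, 92.2, 72.1 and 203 CPM on, against 31.2, 33.7, 53.0, 44.0 and 113 CPM off. Here the groups overlapped, because G9577 off was above 4 of the 5 libraries on, while each line by itself was higher on. Its log2 change was 1.0 (SE 0.15, adjusted p = 0.00509). The other 27 large-subunit genes that rose had log2 changes of 0.45 to 0.95.

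Among the small-subunit genes, 18 of 29 rose and none fell, with a median log2 change of 0.60. Mrps22 (chromosome 9, 98489150 to 98502098, minus strand), a protein specific to mitochondria, had 19.7, 26.4, 32.4, 30.0 and 76.8 CPM with MYCN on, against 8.51, 15.7, 24.2, 20.9 and 15.8 CPM with MYCN off. The groups overlapped, and the G9577 library on was above all others. The change on the log2 scale was 1.03 (SE 0.29, adjusted p = 0.0355), with single-line changes of 0.42 in G9488 and 2.27 in G9577. Without G9577 it was 0.73 (adjusted p = 0.0221), and without any of the other 4 lines its adjusted p was 0.0509 to 0.112. Mrps27 (chromosome 13, 100114741 to 100185516, plus strand), a mitochondrial protein of the pentatricopeptide repeat type, had 40.9, 42.3, 41.4, 45.3 and 97.9 CPM on, against 20.5, 24.8, 28.0, 21.8 and 33.2 CPM off. These groups did not overlap, and 4 of the values on were close together. Its log2 change was 0.99 (SE 0.18, adjusted p = 0.0086), with 17.0% of its exon bases shared with another gene.

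Mrps28 (chromosome 3, 8802146 to 8923857, minus strand) had 22.8, 21.6, 24.4, 29.8 and 48.7 CPM with MYCN on, against 13.8, 11.2, 16.5, 15.9 and 14.4 CPM with MYCN off. The groups did not overlap. On the log2 scale it changed by 0.98 (SE 0.21, adjusted p = 0.0159), with an adjusted p of 0.0603 without G9351. Mrps5 (chromosome 2, 127413162 to 127429722, plus strand), counterpart of a bacterial protein near the messenger RNA entry, had 37.3, 54.5, 49.2, 37.7 and 59.0 CPM on, against 14.9, 34.4, 29.6, 26.5 and 20.7 CPM off. The lowest value on, in G4314, was above the highest off, in G9351. Its log2 change was 0.94 (SE 0.19, adjusted p = 0.0132), with an adjusted p of 0.0583 without G4314. The plot of 8 genes by library shows such values.

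**Figure D2:**
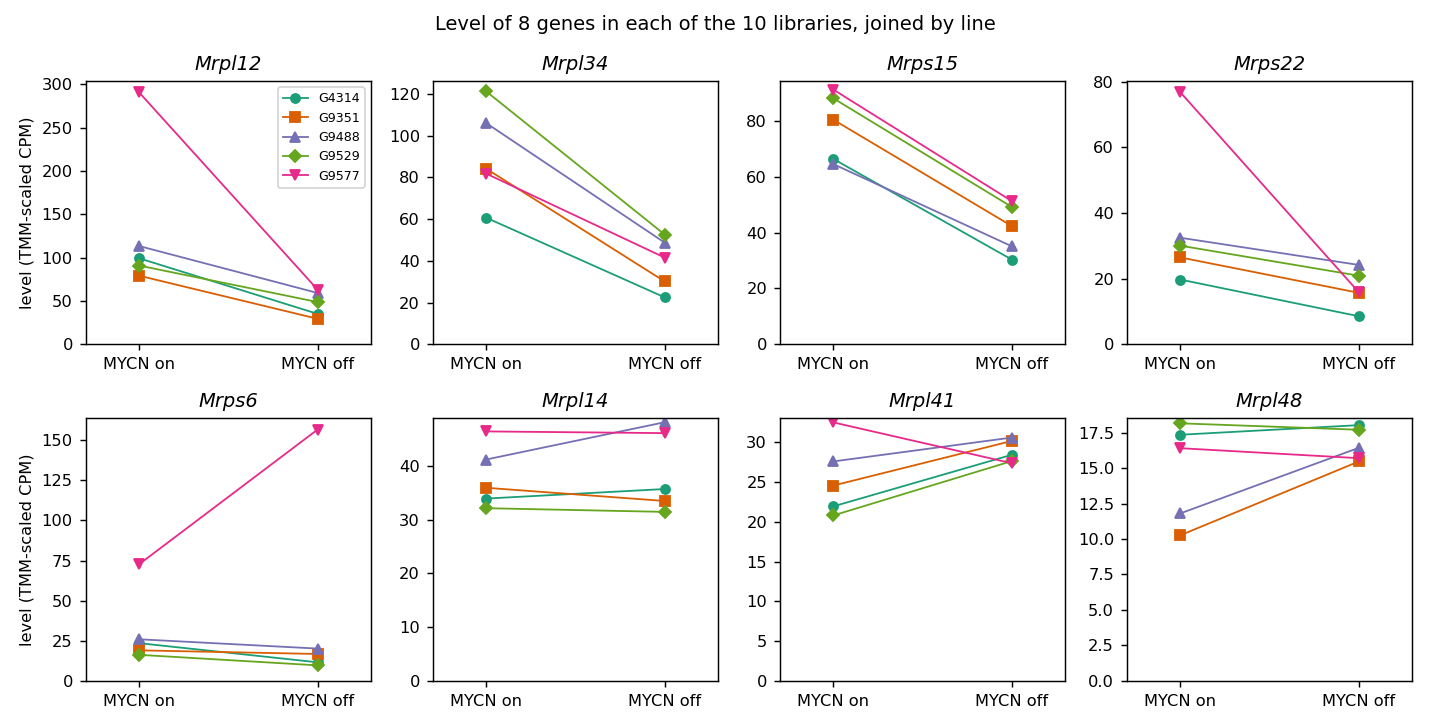
Level in TMM-scaled CPM of 8 genes in each of the 10 libraries, with MYCN on at the left and MYCN off at the right of each panel and lines joining the libraries of 1 cell line. Mrpl12, Mrpl34 and Mrps15 were higher on in all lines without overlap of the groups, whereas Mrps6 was lower on in G9577 alone and Mrpl14, Mrpl41 and Mrpl48 had fitted changes of -0.03 to -0.20.

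Some Mrps symbols do not name a small-subunit protein. The protein of Mrps30 (chromosome 13, 119168917 to 119176059, minus strand) lies in the large subunit in the structures of mammalian mitochondrial ribosomes. Mrps30 had 57.3, 59.6, 83.2, 66.9 and 215 CPM with MYCN on, against 36.0, 25.6, 43.4, 33.5 and 78.6 CPM with MYCN off. The groups overlapped through G9577 off, and every line was higher on. Its log2 change of 1.06 (SE 0.15, adjusted p = 0.00453) was the largest among the Mrps symbols. The 3 genes Mrps18a, Mrps18b and Mrps18c belong to the family of one protein of the bacterial small subunit, and their products sit at different places. Mrps18c alone is counted below as having a bacterial counterpart, and the other two as specific to mitochondria. Mrps18b, of the small subunit, averaged 25.9 ± 11.7 CPM on and 13.2 ± 4.81 CPM off (SD, n = 5 each), a log2 change of 0.95 (SE 0.18, adjusted p = 0.0107). Mrps18a, of the large subunit, averaged 66.1 ± 14.3 CPM on and 45.6 ± 6.47 CPM off, a log2 change of 0.52 (SE 0.12, adjusted p = 0.018). Mrps18c, which takes the place of the bacterial protein in the small subunit, had 33.1, 31.4, 29.2, 28.9 and 41.3 CPM on, against 27.8, 26.7, 24.4, 26.4 and 25 CPM off. Its groups did not overlap, but its log2 change of 0.32 (SE 0.15) did not pass (adjusted p = 0.148). The differences between the 3 genes were not tested. Mrps36, now known as a subunit of the oxoglutarate dehydrogenase complex and not of the ribosome, averaged 4.33 ± 1.38 CPM on and 2.83 ± 0.613 CPM off and did not pass (log2 change 0.57, adjusted p = 0.111). With the genes sorted by the place of the protein, 35 of 49 large-subunit and 16 of 26 small-subunit genes rose, and without G9577 the counts were 34 and 15.

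A fitted change below 0 was found in 3 genes, all of the large subunit. Mrpl41 (chromosome 2, 24827990 to 24830618, minus strand), specific to mitochondria, had 22.0, 24.6, 27.6, 20.8 and 32.5 CPM with MYCN on, against 28.4, 30.2, 30.6, 27.6 and 27.4 CPM with MYCN off. The level was lower on in 4 lines and higher in G9577, and the groups overlapped. The fitted change was, on the log2 scale, -0.20 (SE 0.16, adjusted p = 0.374), counted over exons of which 41.4% of the bases are shared with Dph7. Reads in those shared bases were not counted. Mrpl48 averaged 14.8 ± 3.53 CPM on and 16.7 ± 1.16 CPM off, a log2 change of -0.20 (SE 0.19, adjusted p = 0.431). Mrpl14, counterpart of a bacterial protein at the subunit interface, averaged 37.9 ± 5.84 CPM on and 39.0 ± 7.62 CPM off, with a log2 change of -0.03 and an adjusted p of 0.87. The next smallest changes were those of Mrpl24 (0.11), Mrpl27 (0.13), Mrps21 (0.17), Mrpl10 (0.18) and Mrps11 (0.19), with adjusted p of 0.298 to 0.608. These values do not show that the genes were unchanged. Around the threshold, Mrpl51 (adjusted p = 0.0481), Mrpl46 (0.0484) and Mrps26 (0.0491) were just inside, and Mrps31 (0.0506) and Mrpl1 (0.0527) just outside. Mrpl23 did not pass the filter on low counts, with 3, 7, 8, 17 and 11 counts on and 7, 6, 5, 4 and 7 counts off.

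Mrps6, a small-subunit gene with a bacterial counterpart, was singled out after its values were seen. Mrps6 had 23.5, 19.0, 25.9, 16.3 and 72.7 CPM with MYCN on, against 11.6, 16.8, 20.1, 9.69 and 157 CPM with MYCN off. The 4 other lines were higher on, by 0.18 to 1.01 on the log2 scale, while G9577 was lower on, with a change of -1.11. The fitted log2 change over all lines was 0.24 (SE 0.31, adjusted p = 0.569), and without G9577 it was 0.58 (adjusted p = 0.0588). The direction turned to -0.45 without the line block (adjusted p = 0.801) and to -0.07 with limma-voom (adjusted p = 0.877). Its exons share 18.6% of their bases with Slc5a3, and reads in shared bases were not counted. Any part of Slc5a3 in the G9577 values outside those bases was not tested.

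The large and small subunits moved to a similar extent in each line. Summed over the Mrpl genes, the level was 2349, 2325, 2904, 2540 and 4484 CPM with MYCN on, against 1512, 1527, 2024, 1722 and 2346 CPM with MYCN off. Summed over the Mrps genes, it was 1097, 1175, 1269, 1236 and 2159 CPM on, against 713, 799, 918, 832 and 1229 CPM off. Every line was higher on for both sums, and G9577 was highest in both states. The ratio of the large to the small sum was 2.14, 1.98, 2.29, 2.05 and 2.08 on, against 2.12, 1.91, 2.21, 2.07 and 1.91 off. That ratio differed between lines as much as between states. The median change of the large-subunit genes exceeded that of the small-subunit genes in every line, by 0.02, 0.07, 0.03, 0.01 and 0.11 on the log2 scale. In the fit without G9577 the order of the medians turned, with 0.568 for the large and 0.571 for the small subunit. No test was made of the subunits against each other, since genes are not replicates.

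**Figure D3:**
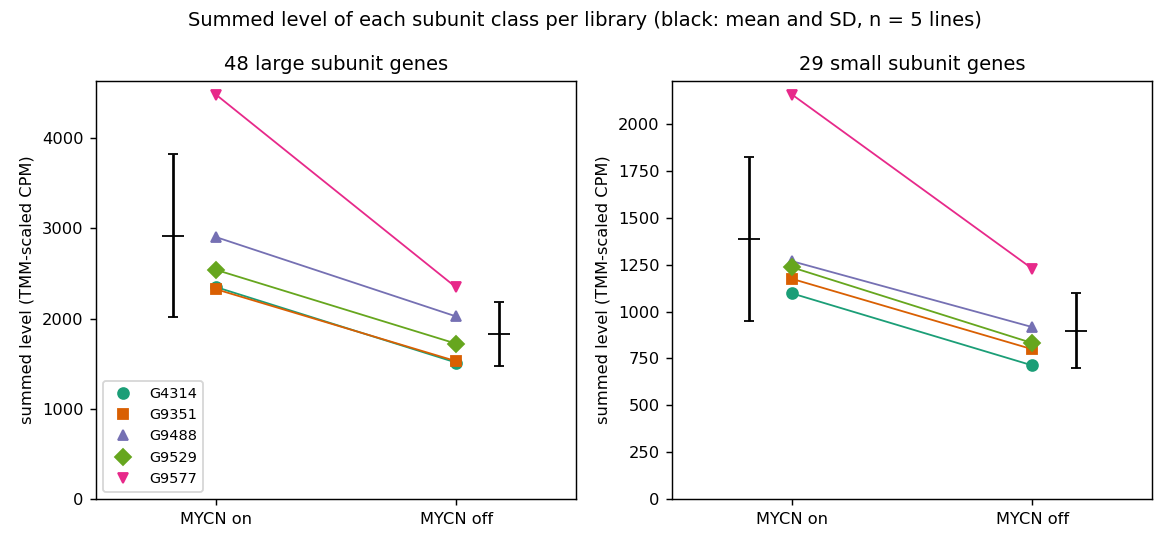
Summed level in TMM-scaled CPM of the 48 large-subunit genes (left) and the 29 small-subunit genes (right) in each library, with points joined by line and black bars for the mean and SD of 5 lines. The mean was 2920 ± 904 CPM on and 1826 ± 356 CPM off for the large subunit, and 1387 ± 436 CPM on and 898 ± 199 CPM off for the small subunit.

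Most of the genes had a higher level with MYCN on in each line, by amounts that differed between lines. By the sign of the difference alone, 71, 74, 70, 70 and 74 of the 76 genes were higher in G4314, G9351, G9488, G9529 and G9577, against 6156, 6405, 6353, 6163 and 5230 of all 12835 genes tested. The median log2 change per line was 0.65, 0.55, 0.44, 0.56 and 0.84, against -0.04, 0, -0.01, -0.02 and -0.23 over all genes tested in the same lines. G9577 thus had the largest median, and it held the largest change of 45 genes. G9488 had the smallest median and held the smallest change of 28 genes. The share of all counts that fell on the 77 genes was 0.350%, 0.370%, 0.412%, 0.382% and 0.596% with MYCN on, against 0.229%, 0.249%, 0.303%, 0.261% and 0.289% with MYCN off. The share was higher on in each line, and the groups did not overlap. TMM factors of G9577 were 0.915 on and 0.860 off, against 0.989 to 1.075 in the other libraries, and the part of this in its larger change was not tested. With 1 library for each line and state, no test of a difference between lines was possible.

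By type of protein, 22 of 29 large-subunit genes with a bacterial counterpart rose, with a median log2 change of 0.74. Of the 20 large-subunit genes specific to mitochondria, 13 rose, with a median of 0.52. In the small subunit 9 of 16 genes with a bacterial counterpart rose, with a median of 0.60, and 7 of 10 genes specific to mitochondria, with a median of 0.61. The order seen in the large subunit was thus not seen in the small one. These 4 counts were, in the order given, 23, 11, 9 and 6 without G9577, 13, 4, 3 and 3 without G4314, 14, 4, 4 and 2 without G9351, and 0, 0, 1 and 0 without the line block. Of all genes tested, 17.4%, 6.64%, 6.32% and 1.68% were higher in these fits, and 15.3% in the main fit. Genes that rose with a bacterial counterpart included Mrpl11 (0.95) and Mrpl16 (0.92) of the large subunit, and those specific to mitochondria included Mrpl45 (0.92) and Mrpl38 (0.91), all as fitted log2 changes. These 4 were chosen after their values were seen.

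Levels per length differed more among the genes than between states. Divided by exon length, the mean over 10 libraries ran from 5.0 to 103 CPM per kb, with a median of 38.0. The highest were Mrpl13, with means of 135 CPM per kb on and 70.0 off, Mrpl34, with 141 on and 60.5 off, and Mrpl33, with 115 on and 80.6 off. The lowest were Mrps25, with 8.41 CPM per kb on and 5.01 off, Mrps33, with 7.01 on and 5.56 off, and Mrps36, with 6.04 on and 3.96 off. The value of Mrps25 is counted over exons of which 58.3% of the bases are shared with Nr2c2, and reads in shared bases were not counted, so its level per length is understated. Of these genes, Mrpl33 rose by 0.51 on the log2 scale (SE 0.13, adjusted p = 0.0245) and Mrps25 by 0.69 (SE 0.15, adjusted p = 0.0168), while Mrps33 did not pass (0.30, SE 0.22, adjusted p = 0.317). The calls of Mrpl33, Mrps25 and Mrps18a were each lost when G4314 or G9351 was left out, and those of Mrpl33 and Mrps18a also without G9529, with adjusted p of 0.0568 to 0.0963. In all, 10 of the 77 genes share exon bases with another gene, and 3 have pseudogenes named after them, Mrpl23, Mrpl48 and Mrps36.

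**Figure D4:**
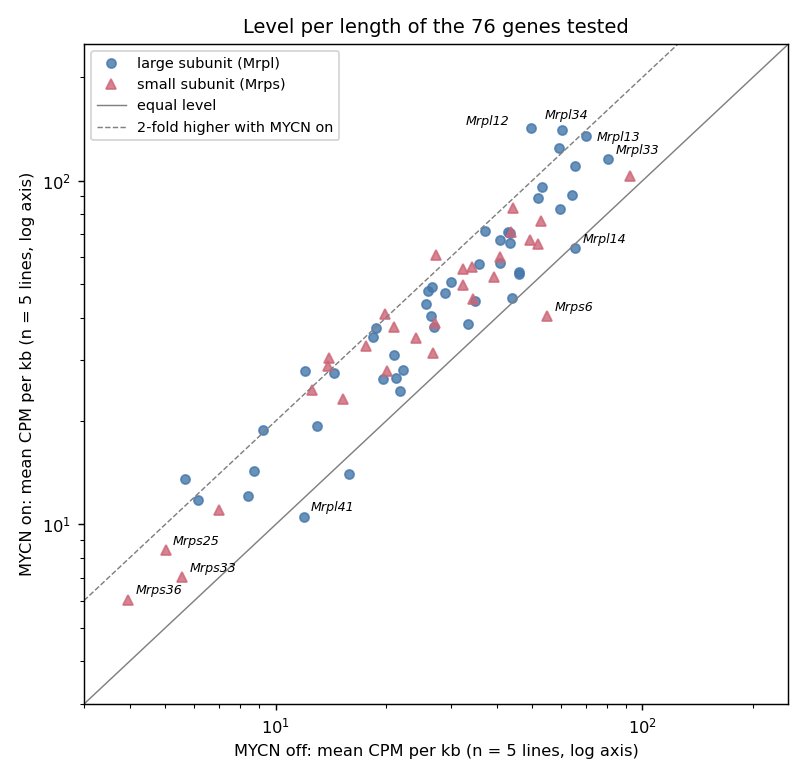
Mean level per length (CPM per kb of exon, log axes) of the 76 tested genes, with MYCN on up the page and MYCN off along it, and lines for equal and 2-fold higher levels. Nearly all genes lie above the line of equal level, and 4 genes, Mrps6, Mrpl14, Mrpl41 and Mrpl48, lie under it. The mean of Mrps6 is low there through G9577, whose level was 72.7 CPM on and 157 CPM off.

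Promoter sequence was available for 68 of the 77 genes as a window of 250 bases before and 50 after the start (RefSeq, GRCm38.p6, a later build than the mm9 of the counts). The windows were searched on both strands for CACGTG, the E-box bound by MYC and MAX, its variant CACGCG, GCATGCGC of NRF1, CCGGAAG of ETS factors such as GABPA, and AAGATGGCG of YY1, of which the first is its own complement and none contains another. The 120 bases before the start are shown for 8 genes that rose and hold these letters, and for Mrpl41, which did not pass and holds none of them. The 8 were picked for holding a motif there, up to 2 per motif with the largest rise, so they cannot show that motifs go with rising. Other genes that rose, such as Mrps30, Mrpl11 and Mrps15, hold none in their windows. Among genes that did not pass, Mrpl14 holds CACGCG in this stretch, and Mrpl27 and Mrpl43 hold the ETS letters. Capitals mark the matches, on either strand. Mrpl36 (GRCm38 chr13:73330889-73331008, plus strand) holds the E-box and, on the opposite strand, the YY1 letters, and Mrpl20 (chr4:155802758-155802877, plus strand) holds the E-box alone. Mrpl45 (chr11:97315596-97315715, plus strand) holds 3 copies of CACGCG, and Mrpl30 (chr1:37890357-37890476, plus strand) 2 overlapping copies on opposite strands. Mrpl22 (chr11:58171544-58171663, plus strand) holds the ETS and NRF1 letters, and Mrpl17 (chr7:105811088-105811207, minus strand) CACGCG and the NRF1 letters. Mrpl34 (chr8:71464806-71464925, plus strand) and Mrps22 (chr9:98601680-98601799, minus strand) hold the ETS letters. The last is Mrpl41 (chr2:24975099-24975218, minus strand).
Mrpl36: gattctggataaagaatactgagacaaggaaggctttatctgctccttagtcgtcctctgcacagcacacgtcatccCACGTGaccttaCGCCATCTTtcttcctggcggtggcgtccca
Mrpl20: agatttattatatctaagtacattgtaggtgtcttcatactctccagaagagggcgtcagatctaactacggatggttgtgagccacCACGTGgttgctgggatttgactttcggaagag
Mrpl45: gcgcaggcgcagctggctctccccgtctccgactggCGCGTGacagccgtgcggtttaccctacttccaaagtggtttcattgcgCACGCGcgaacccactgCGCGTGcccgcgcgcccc
Mrpl30: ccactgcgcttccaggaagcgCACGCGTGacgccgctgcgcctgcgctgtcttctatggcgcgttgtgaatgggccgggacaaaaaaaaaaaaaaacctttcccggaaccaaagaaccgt
Mrpl22: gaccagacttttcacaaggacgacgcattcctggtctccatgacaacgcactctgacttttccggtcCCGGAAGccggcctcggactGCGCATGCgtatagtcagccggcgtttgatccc
Mrpl17: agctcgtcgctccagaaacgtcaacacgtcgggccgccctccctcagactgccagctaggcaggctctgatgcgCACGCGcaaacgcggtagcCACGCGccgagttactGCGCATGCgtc
Mrpl34: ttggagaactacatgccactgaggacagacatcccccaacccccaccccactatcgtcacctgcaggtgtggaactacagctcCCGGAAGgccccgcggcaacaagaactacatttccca
Mrps22: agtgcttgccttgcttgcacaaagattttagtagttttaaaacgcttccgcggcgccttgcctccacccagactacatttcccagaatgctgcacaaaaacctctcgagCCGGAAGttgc
Mrpl41: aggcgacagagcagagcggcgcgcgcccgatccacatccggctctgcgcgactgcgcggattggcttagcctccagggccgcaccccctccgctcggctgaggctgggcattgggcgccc

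The ETS, NRF1 and YY1 letters were more common in these windows than in all promoters and in those of tested genes. The E-box was about as common as in all promoters and less common than in those of tested genes. CACGTG was in 5 of 68 windows, or 7.35%, against 7.24% of all 27025 promoter windows, 10.3% of those of tested genes and 14.6% of those of genes that rose. CACGCG was in 12 windows, or 17.6%, against 9.36% of all, 18.7% of those of tested genes and 24.0% of those of genes that rose. CCGGAAG was the most frequent, in 24 windows, or 35.3%, against 9.12% of all, 18.2% of those of tested genes and 26.4% of those of genes that rose. GCATGCGC was in 8 windows, or 11.8%, against 2.8% of all, 5.65% of those of tested genes and 7.41% of those of genes that rose. AAGATGGCG was also in 8 windows, against 1.49% of all, 3.32% of those of tested genes and 4.74% of those of genes that rose. CCGGAAG was in 15 of 44 windows of mitochondrial ribosomal protein genes that rose and in 9 of 23 of those that did not pass. GCATGCGC was in 7 of 44 and 1 of 23, and AAGATGGCG likewise in 7 of 44 and 1 of 23. CACGTG was in 4 of 44 and 1 of 23, and CACGCG in 9 of 44 and 3 of 23. These shares are descriptions of letters in 1 window per gene, and binding was not measured.

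The genes lie on 17 chromosomes, with up to 10 on 1 chromosome (chromosome 11). In mm9, 28 of the 76 tested genes, or 36.8%, start within 1000 bases of a gene on the opposite strand, against 17.9% of all tested genes. Of the 25 partners that were tested and are no mitochondrial ribosomal protein genes, 10 rose and 2 fell. Over all genes tested, 15.3% were called higher and 15.6% lower. Mrpl13 and its partner Mtbp, 96 bases apart, both rose, by 1.0 and 1.21 on the log2 scale. Mrpl10 did not pass, with a log2 change of 0.18, while its partner Lrrc46 fell by 2.46 on that scale (adjusted p = 0.00376). Mrpl43 did not pass, with a change of 0.23, while its partner Peo1, the mitochondrial DNA helicase, rose by 0.95. Mrpl46 and Mrps11 face each other 42 bases apart, and Mrpl46 rose by 0.51 while Mrps11 did not pass, with a change of 0.19. The call of Mrpl46 (adjusted p = 0.0484) was lost whichever line was left out. The changes of these 2 genes were not tested against each other. The 4 pairs were chosen after their values were seen.

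Lists of genes whose products work with the mitochondrial ribosome also held genes that rose and none that fell. For these lists and those below, the shares over all genes tested were 15.3% higher and 15.6% lower. Of 6 ribosomal proteins named without the Mrp prefix, 5 rose, with a median log2 change of 0.51. They included Ptcd3 of the small subunit (1.14, SE 0.19, adjusted p = 0.00688), Chchd1 of the small subunit (1.04, SE 0.15, adjusted p = 0.00513) and Ict1 of the large subunit (0.55, SE 0.16, adjusted p = 0.0355). Of 27 assembly factors 10 rose and none fell, with a median of 0.29. C1qbp, a matrix protein needed for mitochondrial translation, had 206, 209, 248, 233 and 599 CPM with MYCN on, against 51.0, 56.6, 101, 72.0 and 136 CPM with MYCN off. Its groups did not overlap, and its log2 change of 1.81 (SE 0.15, adjusted p = 0.00265) was larger than that of any of the 76 genes. Noa1, a GTPase of ribosome assembly, rose by 1.28 (SE 0.20, adjusted p = 0.00591) and Wbscr16 by 1.13 (SE 0.18, adjusted p = 0.00669).

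Of 16 translation and messenger RNA factors of mitochondria 8 rose and none fell, with a median log2 change of 0.43. They included the elongation factor Tsfm (1.04, SE 0.21, adjusted p = 0.0117) and the RNA-binding partners Slirp (0.91, adjusted p = 0.0103) and Lrpprc (0.87, adjusted p = 0.0108). Of 23 genes of mitochondrial DNA expression and its regulators 8 rose and none fell, with a median of 0.37. Pprc1, a coactivator of nuclear genes for mitochondria, rose by 1.67 (SE 0.21, adjusted p = 0.00385), and the transfer RNA processing enzyme Elac2 by 1.11 (SE 0.15, adjusted p = 0.00425). Transcripts of 3 factors whose letters were searched for in the promoters did not pass, with log2 changes of 0.29 for Nrf1 (adjusted p = 0.202), 0.24 for Gabpa (adjusted p = 0.257) and 0.03 for Yy1 (adjusted p = 0.888).

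Of 76 nuclear genes of the respiratory chain and ATP synthase 24 rose and none fell, with a median log2 change of 0.29, below that of the mitochondrial ribosomal protein genes in each of the 5 lines. Cyc1 of complex III rose by 0.87 (SE 0.16, adjusted p = 0.00879), Ndufa12 of complex I by 0.76 (SE 0.14, adjusted p = 0.00965) and Ndufc2 of complex I by 0.53 (SE 0.10, adjusted p = 0.0106). Of 74 cytosolic ribosomal protein genes 68 rose and none fell, with a median of 1.18, and Rpl14 of the large cytosolic subunit rose by 1.47 (SE 0.12, adjusted p = 0.00265). The per-line medians of the cytosolic genes were 1.20, 1.3, 1.12, 1.23 and 0.76 in the line order above. G9577 thus had the smallest median for cytosolic and the largest for mitochondrial ribosomal protein genes, and it was the one line in which the mitochondrial median was the higher. Without G9577, 66 cytosolic ribosomal protein genes, 32 respiratory chain genes, 6 other-symbol ribosomal proteins, 10 assembly factors, 8 translation factors and 9 DNA expression genes were higher. Of all genes, 17.4% were higher in that fit. Respiratory chain genes fell to 5 of 76 without G4314 and 3 of 76 without G9351, shares no larger than the 6.64% and 6.32% of all genes higher in those fits. Without any of G4314, G9351, G9488 and G9529, 2 of the 6 other-symbol ribosomal proteins were higher, with 3 or 4 translation factors, 6 or 7 assembly factors and 4 to 6 DNA expression genes. Between 6.32% and 11.3% of all genes were higher in those fits. Without the line block, 24 cytosolic ribosomal protein genes, 1 respiratory chain gene, 2 assembly factors, 1 translation factor, 1 DNA expression gene and 0 other-symbol ribosomal proteins were higher, against 1.68% of all genes.

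**Figure D5:**
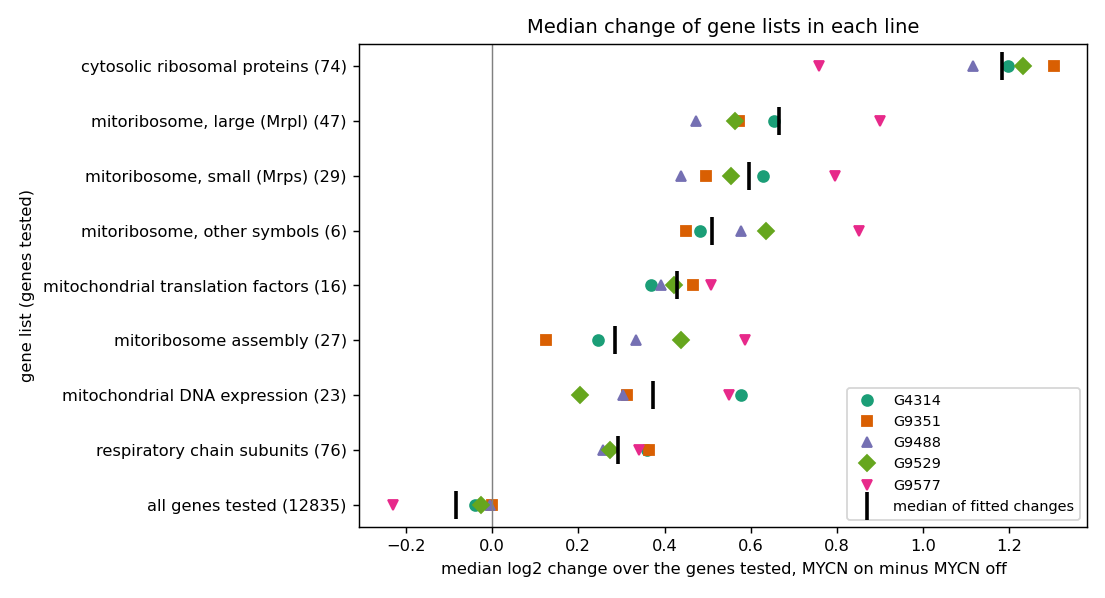
Median log2 change, MYCN on minus MYCN off, of 8 gene lists and of all genes tested, with a point for each line and a black bar for the median of the fitted changes. The line G9577 has the highest median for both mitochondrial subunits, 0.90 and 0.80, and the lowest for cytosolic ribosomal proteins, 0.76.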

How the data were processed

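Messenger RNA was sequenced from 5 mouse lines, each with MYCN on and off. Total RNA was taken with TRIzol, per the labels' protocols, selected on oligo-dT beads and made into libraries with NEBNext Ultra, which does not mark strand. Per the submitters' processing notes, bcl2fastq 1.8.4 and STAR 2.5.2a with mm9 were used. The deposited values are, per the file headers, raw read counts per gene from featureCounts 1.6.0, without strand and with no option for multi-mapping or overlapping reads, which were therefore not counted. Reads of genes with near-identical copies are thus counted in part.

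Genes were filtered with filterByExpr (minimum count 10, 12835 of 24391 genes kept, at least 93.9% of the counts of each library) and tested in edgeR 4.0.16 (R 4.3.3) by the two-sided quasi-likelihood F test with TMM scaling and the line as a block. The fit had 4 residual degrees of freedom and a biological coefficient of variation of 28.5%. Log2 changes run as MYCN on minus off, each SE is the change over the root of the F value, and changes of single lines use log2 CPM with a prior count of 2. With 1 culture for each line and state, p-values measure the spread between 5 lines. The labels give each line 1 library in each state, which pairs the libraries, and deviations from the group means correlated within a line with r of 0.721 to 0.873, and at most 0.273 between lines. No library was a copy of another. The code was tested on simulated data.

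Alternatives were no block, DESeq2 1.42.0, limma-voom 3.58.1, RLE scaling, library size alone, 2 other filters and each line left out. The members and lists were chosen with earlier results of these data known. Genes named were 8 set in advance, among the members the 6 largest rises in each subunit (mean CPM of at least 5, same sign in all lines), the 3 highest and lowest per length, all with a negative change and the 6 smallest changes not called, and from each other list the 3 smallest p, some of which are not reported here. Nrf1, Gabpa and Yy1 were named for the motifs. Reference genes and promoters came from RefSeq GRCm38.p6 and pseudogene names from GENCODE, and mm9 coordinates from the files. Calls of the lists under the alternatives were added after the data were seen. Protein sequences were not used here.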

Additional observations from a re-analysis of the deposited data

Results flagged for a closer look

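In 22 of 87 groups of 5 values examined, 1 line stood far from the other 4. The groups reuse the same libraries and include sums over the same genes. They are not independent, so this count cannot be set against a chance rate. Most were MYCN-on libraries of G9577. There the level was 291 CPM for Mrpl12, 203 CPM for Mrpl13, 133 CPM for Mrpl19, 105 CPM for Mrpl33 and 164 CPM for Mrpl10. It was 215 CPM for Mrps30, 46.1 CPM for Mrps18b, 76.8 CPM for Mrps22, 97.9 CPM for Mrps27, 88.4 CPM for Mrps25 and 61.9 CPM for Mrps11. The sums were 4484 CPM for the large and 2159 CPM for the small subunit. With MYCN off, G9577 stood apart in Mrpl13 (113 CPM), Mrpl10 (111 CPM), Mrpl24 (76.9 CPM) and Mrps21 (61 CPM). In the change itself, on the log2 scale, G9577 was far higher for Mrps18c (0.72) and Mrpl10 (0.56). G9529 was far lower for Mrps36 (-0.00499) and Mrps33 (-0.20), both with few counts, and G9488 was lower for Mrpl33 (0.25). G9577 is the line with few neuroendocrine and many mesenchymal transcripts, and the part of this in these values was not tested.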

How the results depend on the processing

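The medians of the 76 genes and of each subunit stayed positive under each alternative run, and no mitochondrial ribosomal protein gene was called lower in any of them. Without the replicate block, that is without pairing by line, edgeR called 274 genes in all and 1 of the 76, Mrps15, so that the small subunit had 1 gene higher and the large subunit 0; 40 of the 76 then had an unadjusted p under 0.05. With each line left out in turn, 1729 to 4493 genes were called, 23 to 49 of the 76 were higher, 16 to 32 of the large subunit and 7 to 17 of the small; the lowest counts came without G4314 and without G9351. The count of the 76 that were higher was 55 with DESeq2, 53 with limma-voom, 46 with RLE scaling, 46 with library size alone, 47 with a filter of at least 1 CPM and 44 without a filter. Of all genes tested, 17.8%, 16.3%, 13.6%, 14.4%, 14.5% and 8.94% were higher in these fits, in the same order. With a line left out, the share of all genes ran from 6.32% (without G9351) to 17.4% (without G9577). Of the 51, 19 were called with every line left out in turn. The log2 change of Mrpl14 ran from -0.0782 to 0.0546 with each line left out; the highest was without G9488 (adjusted p = 0.821). The change of Mrps6 turned to -0.45 without the block and -0.07 with limma-voom. Of all calls, 49.6% were higher in the main setting, 43.2% with DESeq2 and 43.5% with RLE scaling. The causes were not tested. Mrpl23 had at most 17 counts in a library. The part of depth, and of uncounted reads that also map to its named pseudogene, was not tested. The 4 residual degrees of freedom limit small changes.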

Other observations

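Among the 76 genes, the log2 change had a Spearman rho of -0.182 with the MYCN-off level per length, 0.139 with exon length and 0.229 with the number of exons. These describe genes measured in the same libraries, which are not independent, and no p is given.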
